A study of Homo sapiens with 6 samples.

Results

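MHC class I antigen presentation is described here through 9 genes of the class I pathway: HLA-B, HLA-C, HLA-E, B2M, TAP1, TAP2, TAPBP, PSMB8 and PSMB9. They were taken by symbol from a table of counts with 50883 gene symbols, which held all 9. The cells were D283, an established human line from medulloblastoma, a malignant tumour of the cerebellum. Both groups had been infected with a lentivirus that expresses GFP and a guide RNA. In the control group the guide had no target, and in the OTX2 knockout group it was directed at OTX2, a homeobox gene of the developing brain. There were 3 infections per group, cells were collected after 7 days, and total RNA was sequenced. All replicates are infections of 1 line, and p-values cover only the variation among such infections. The share of edited cells is not given in the sources used here. In bulk RNA, fewer cells that express a gene and less RNA per cell cannot be told apart.

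Class I molecules show fragments of a cell's own proteins to cytotoxic T cells. The proteasome cuts the protein, the TAP1-TAP2 transporter moves the peptide into the endoplasmic reticulum, and tapasin (TAPBP) holds an empty heavy chain (HLA-B, HLA-C or HLA-E) with its light chain β2-microglobulin (B2M) at the transporter until a peptide binds. Interferons raise most of these genes, partly by exchanging catalytic subunits of the proteasome for PSMB8, PSMB9 and PSMB10, and the transactivator NLRC5 acts on class I promoters. Neurons and many neural tumours keep class I low.

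Promoters of 4 members that rose, and that of TAP1, which had too few counts to test, are shown because interferon, NF-κB and NLRC5 act through short elements in class I promoters. RefSeq windows on GRCh38.p14 were matched for 8 of the 9 members, and HLA-E had no entry. Each line gives the 250 bases before a transcript start, 5′ to 3′ on the gene's strand. Capitals mark a match to GAAANNGAA, the only form of the interferon-stimulated response element (ISRE) searched, or to the NF-κB consensus, on either strand.
B2M, plus strand, chr15:44711267-44711516: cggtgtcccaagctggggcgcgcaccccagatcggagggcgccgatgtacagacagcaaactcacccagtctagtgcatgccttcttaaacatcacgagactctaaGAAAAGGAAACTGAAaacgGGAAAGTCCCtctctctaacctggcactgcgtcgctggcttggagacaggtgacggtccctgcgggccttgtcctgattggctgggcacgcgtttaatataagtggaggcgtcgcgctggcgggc
TAPBP, minus strand, chr6:33314079-33314328: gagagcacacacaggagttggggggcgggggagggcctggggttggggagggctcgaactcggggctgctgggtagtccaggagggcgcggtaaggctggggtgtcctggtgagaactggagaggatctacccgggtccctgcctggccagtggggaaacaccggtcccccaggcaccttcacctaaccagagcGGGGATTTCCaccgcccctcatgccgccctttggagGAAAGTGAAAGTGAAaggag
TAP1, minus strand, chr6:32853705-32853954: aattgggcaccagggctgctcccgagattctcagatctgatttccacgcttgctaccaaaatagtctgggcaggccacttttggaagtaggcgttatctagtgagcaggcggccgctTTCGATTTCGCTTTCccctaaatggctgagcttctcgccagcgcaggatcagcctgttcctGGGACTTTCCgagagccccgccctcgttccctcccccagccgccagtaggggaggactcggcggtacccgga
HLA-B, minus strand, chr6:31357180-31357429: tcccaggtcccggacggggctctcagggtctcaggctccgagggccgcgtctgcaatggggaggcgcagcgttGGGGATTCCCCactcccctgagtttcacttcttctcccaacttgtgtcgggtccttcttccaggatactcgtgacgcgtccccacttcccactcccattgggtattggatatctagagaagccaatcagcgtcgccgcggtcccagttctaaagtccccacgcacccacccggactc
HLA-C, minus strand, chr6:31272093-31272342: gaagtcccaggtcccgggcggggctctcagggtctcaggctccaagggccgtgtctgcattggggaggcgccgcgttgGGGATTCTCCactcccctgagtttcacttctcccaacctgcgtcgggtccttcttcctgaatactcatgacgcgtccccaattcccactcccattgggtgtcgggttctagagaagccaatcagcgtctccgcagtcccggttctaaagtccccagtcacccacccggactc

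ISRE letters were found in 4 of the 8 members, B2M, TAP1, TAP2 and TAPBP, against 6.88% of 35116 promoter windows of the same length. In TAPBP a pair of overlapping matches covers positions -20 to -6 before the start, and in B2M positions -144 to -130. The NF-κB consensus was found in 5 members, HLA-B, HLA-C, B2M, TAP1 and TAPBP, against 5.21% of windows. The palindrome in HLA-B matches on both strands between -177 and -167, and HLA-C has a match on 1 strand from -172 to -163. The letters TGACG, the core of a cyclic AMP element such as the X2 box of class I promoters, lay at -106 to -102 in HLA-B, -105 to -101 in HLA-C and -75 to -71 in B2M. TGACG was held by 6 members and by 21.2% of windows, and CCAAT, the core of the Y box, by 5 members and 32.0% of windows, on either strand. There were 0 overlaps between matches of different elements in the members. A match is a description of the letters, and binding was not measured.

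The libraries were of similar depth, with total counts of 54540645 to 62166870. OTX2 RNA, the check of the labels, was lower in the knockout group, with 1002, 979 and 909 CPM (counts for every 1e6 counts of a TMM-scaled library) in control libraries and 765, 824 and 887 CPM in knockout libraries. The difference was called (edgeR adjusted p = 0.00646), but edited alleles can still be transcribed, which makes it a weak check. Genes that mark Group 3 medulloblastoma were expressed: IMPG2, a matrix protein of photoreceptors, stood at 702 ± 9.7 CPM in control (SD, n = 3) and GABRA5, a GABA receptor subunit, at 159 ± 2.86 CPM. Of 10 such markers 9 fell in the knockout group, OTX2 itself among them, where 18.5% of all tested genes fell. Immune and endothelial cells are rich in class I. Of 15 immune cell markers 6 had 0 counts throughout (CD3D, CD3E, CD2, MS4A1, FCGR3A and NKG7). All 15 together summed to 1.29 to 1.44 CPM in control and 1.15 to 1.54 CPM in knockout libraries, and these ranges overlapped. The summed level of 8 endothelial markers was 7.96 to 9.72 CPM in control and 8.41 to 9.42 CPM in knockout. ESAM made up much of the endothelial sum (mean 5.53 CPM in control, 2.91 CPM in knockout), and CSF1R much of the immune sum in control (0.520 and 0.180 CPM). Both fell, so a steady sum does not show that the rarer markers were steady. Single markers differed nonetheless: CDH5, an endothelial cadherin, had 0 counts in control and 31 in knockout, TYROBP, a myeloid adaptor, had 2 and 28, VWF rose 1.84-fold, PECAM1 rose 3.31-fold (11 against 42 counts), CD14 rose 2.23-fold (13 against 33 counts), and ESAM and CSF1R fell 1.90-fold and 2.88-fold. The PECAM1 call was lost with DESeq2 and when control replicate 2 or knockout replicate 1 was left out. The CD14 call held in 5 of 14 alternatives and was lost with DESeq2 and without control replicate 1 or 2 or any 1 knockout replicate. The part of these markers in the class I differences was not tested. Control replicate 1 had more mitochondrial RNA, 0.764% of counts against 0.440% to 0.601% in the other libraries, and without it the 5 member calls described next were still made.

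The 9 genes formed 2 sets by level. The heavy chains HLA-B, HLA-C and HLA-E, the light chain B2M and the loading factor TAPBP were measured in both groups and were higher in the knockout group. The transporter subunits TAP1 and TAP2 and the proteasome subunits PSMB8 and PSMB9 had between 0 and 6 counts per library and were left out of the test by the filter on low counts. Of the 5 tested members, 5 rose and 0 fell, where 21.2% of the 18420 tested genes rose and 18.5% fell (edgeR's quasi-likelihood F-test, p adjusted by Benjamini-Hochberg over all tested genes, threshold 0.05). In numbers of genes these are 3908 and 3404, and with library totals alone 5210 and 2034. The members' log2 fold changes had a median of 1.19, beside 0.01 for all tested genes, and the 4 others could not be called in either direction. The members are known to share interferon control, so they are not independent of each other.

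**Figure D1:**
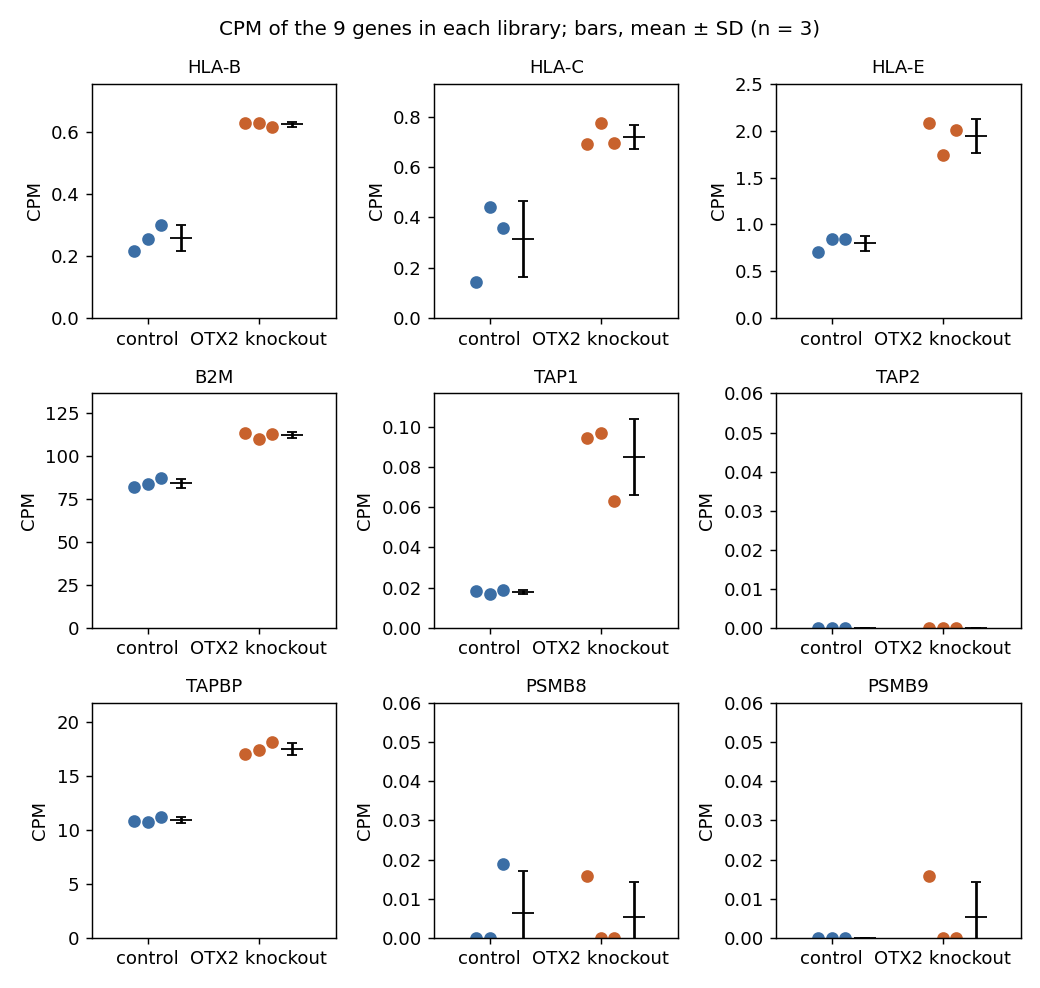
CPM of each of the 9 genes (vertical axis, from 0, with its own scale per panel) in 3 control and 3 OTX2 knockout libraries, with the mean and SD beside the points. The groups are apart in HLA-B, HLA-C, HLA-E, B2M, TAPBP and TAP1, although TAP1 rests on 1 count per control library, while TAP2, PSMB8 and PSMB9 lie at or near 0.

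Among the heavy chains, HLA-E, the ligand of the inhibitory NKG2A receptor on natural killer cells, held 0.704, 0.847 and 0.844 CPM in control and 2.09, 1.75 and 2.01 CPM in knockout libraries. Every knockout library lay above every control library. HLA-E rose 2.44-fold, or by 1.28 ± 0.16 on the log2 scale (SE; edgeR adjusted p = 1.1e-05). HLA-E lies on the plus strand at chr6:30489467-30494205 in GENCODE release 29, and its exons overlap no other annotated gene.

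HLA-B, a classical heavy chain that presents peptides to cytotoxic T cells, held 0.217, 0.254 and 0.300 CPM in control and 0.628, 0.631 and 0.616 CPM in knockout libraries. These values rest on 43 counts in control and 118 in knockout. The groups did not overlap, and HLA-B rose by 1.28 ± 0.24 on the log2 scale (SE; edgeR adjusted p = 0.000702). HLA-C, a classical heavy chain that is also read by receptors of natural killer cells, held 0.144, 0.440 and 0.356 CPM in control, with control replicate 1 lowest, and 0.691, 0.776 and 0.695 CPM in knockout libraries. HLA-C rose by 1.19 ± 0.29 on the log2 scale (SE; edgeR adjusted p = 0.00476), on 53 counts in control and 136 in knockout. Without control replicate 1 the rise of HLA-C was 0.84 and was still called. HLA-B, HLA-C and HLA-E were the tested members called with a rise of over 2-fold, which 6.04% of all tested genes showed.

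Counts of these heavy chains are uncertain, because the genes are alike in sequence and differ between people. In GENCODE's transcripts, 21.0% of the 50-base stretches of the longest HLA-B coding transcript, 6.71% of HLA-C and 5.76% of HLA-E also occur in a transcript of another gene. Exons of HLA-B, which spans chr6:31269491-31357188 in that annotation through a long transcript, overlap HLA-C (chr6:31268749-31272130). Both lie on the minus strand. How the alignment treated reads with several matches, or alternate sequences of the MHC, is not given in the sources used here. Its part in the differences was not tested.

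B2M, the light chain shared by all class I molecules, was by far the most abundant member per length. It held 81.8, 83.4 and 86.9 CPM in control and 113.6, 109.9 and 112.8 CPM in knockout libraries, without overlap. B2M rose 1.33-fold, by 0.42 ± 0.05 on the log2 scale (SE; edgeR adjusted p = 3.57e-06). B2M lies outside the MHC, on the plus strand at chr15:44711487-44718877, and 0% of its 50-base stretches occur in another gene.

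TAPBP, which encodes tapasin, held 10.8, 10.7 and 11.2 CPM in control and 17.1, 17.4 and 18.1 CPM in knockout libraries. The groups were separate and the spread within each was small. TAPBP rose 1.61-fold, by 0.69 ± 0.06 on the log2 scale (SE; edgeR adjusted p = 3.5e-07). The gene lies at chr6:33299694-33314387 on the minus strand, and its exons overlap no other annotated gene. Knockout CPM lay wholly above control CPM in these 5 members, as it did in 26.2% of all tested genes.

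The balance of heavy to light chain RNA was compared within libraries. The log2 ratio of HLA-E to B2M counts went from -6.71 ± 0.12 in control to -5.85 ± 0.11 in knockout libraries (SD, n = 3 per group), a 1.82-fold higher ratio (two-sided exact permutation test, p = 0.1, adjusted p = 0.133 over 4 ratios). HLA-B to B2M moved by 0.85 and HLA-C to B2M by 0.90 on the log2 scale, each with the same exact p of 0.1, the smallest that 3 against 3 libraries allow. Without control replicate 1, which was lowest in HLA-C, the HLA-C difference was 0.45. The 3 ratios share B2M and do not depend on library scaling. In each ratio all 3 knockout libraries lay above all 3 control libraries, and none of the ratios passed 0.05.

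TAP1, the transporter subunit whose gene sits back to back with PSMB9, had 1 count in each control library and 6, 6 and 4 counts in the knockout libraries. The summed counts, 3 against 16, give a ratio of 4.74 with a 95% counting interval of 1.36 to 25.4. In a fit without the filter TAP1 had an adjusted p of 0.0806 by edgeR, so the higher counts did not pass. TAP2, the partner subunit, had 0 counts in all 6 libraries, which allows up to 0.0179 CPM over the control group and 0.0159 CPM over the knockout group (3 counts). PSMB8 had 1 count in each group, and PSMB9 had 0 in control and 1 in knockout. At this depth no difference in TAP2, PSMB8 or PSMB9 was detectable. RefSeq starts of TAP1 and PSMB9 lie 488 bases apart on opposite strands.

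Low counts here do not show that a gene is silent. Exons of other annotated genes cover 9.49% of TAP1, 32.3% of TAP2, 20.6% of PSMB8 and 5.66% of PSMB9 exon bases, and strand-specific counting was not stated. As a comparison chosen after its values were seen, PSMA2, a proteasome subunit that every cell uses, had 7 counts in control and 6 in knockout, with 34.6% of its exon bases covered by other genes and 51.0% of its 50-base stretches found elsewhere. For PSMB9 and TAP1, 12.1% and 15.2% of such stretches were found elsewhere, for PSMB8 28.9% and for TAP2 35.8%. CALR and IRF1, also chosen after their values were seen, went the other way. Other genes cover 9.95% and 22.0% of their exon bases, and they averaged 602 and 5.18 CPM in control. The part of overlap in the low counts was not tested.

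Per kilobase of the longest coding transcript, the order of mean control levels was B2M (49.3 CPM per kb), TAPBP (2.9), HLA-E (0.307), HLA-C (0.202), HLA-B (0.166) and TAP1 (0.00605). Knockout levels kept that order, at 65.7, 4.67, 0.748, 0.464, 0.404 and 0.0287 CPM per kb. In control libraries the per-length values of HLA-E and HLA-C overlapped, as did those of HLA-C and HLA-B, so their order there is within the spread. In knockout libraries HLA-E, HLA-C and HLA-B did not overlap. The interferon-inducible proteasome subunits PSMB8, PSMB9 and PSMB10 were all far below the constitutive subunits they replace, PSMB5 at 229, PSMB6 at 62.1 and PSMB7 at 155 CPM per kb in control.

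**Figure D2:**
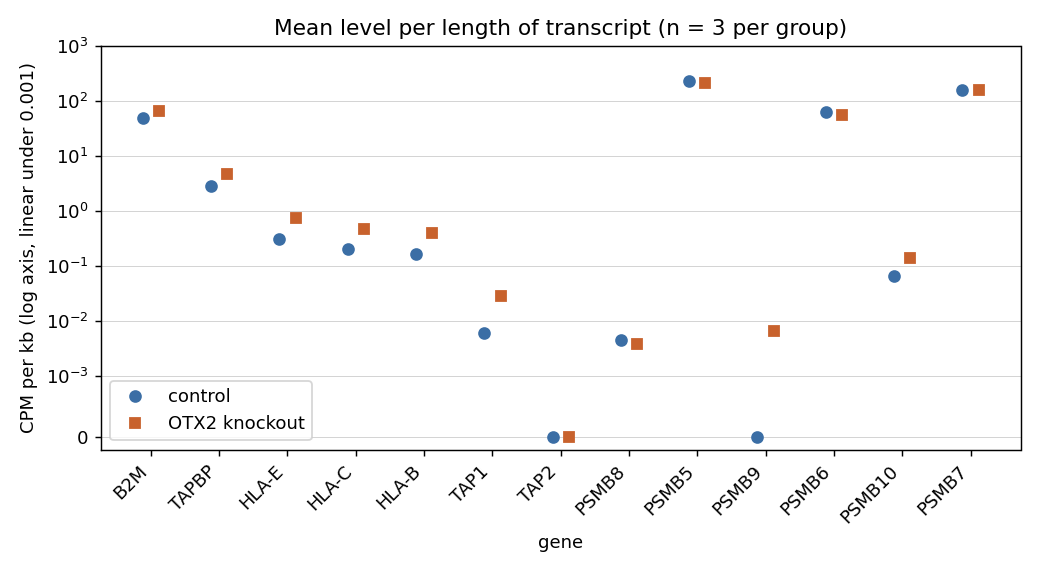
Mean level of class I genes and proteasome subunits in CPM per kb of longest coding transcript (vertical log axis, linear under 0.001), for control (circles) and OTX2 knockout (squares), n = 3 per group. Among the 9 genes, control levels run from 49.3 CPM per kb for B2M to 0 for TAP2 and PSMB9, and PSMB5, PSMB6 and PSMB7 stand far above PSMB8, PSMB9 and PSMB10.

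The MHC genes around TAP1 were mostly near 0 over a wide stretch that also holds the class II genes, while many genes beyond it were well counted. Not all were, and CFB and MLN beyond it averaged 0 CPM in control. Inside the stretch BRD2, a chromatin reader 115 kb from the start of TAP1, averaged 349 CPM in control libraries and 361 CPM in knockout libraries. Within 1 Mb of the start of TAP1 the table held 71 protein-coding genes, 49 of them tested. TAPBP was the tested member among these, and of the other 48 genes 6 rose, 14 fell, and the median change was -0.04 on the log2 scale. Over all tested genes, 21.2% rose and 18.5% fell. This region was described after its values were seen, and its genes were not tested as a set.

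**Figure D3:**
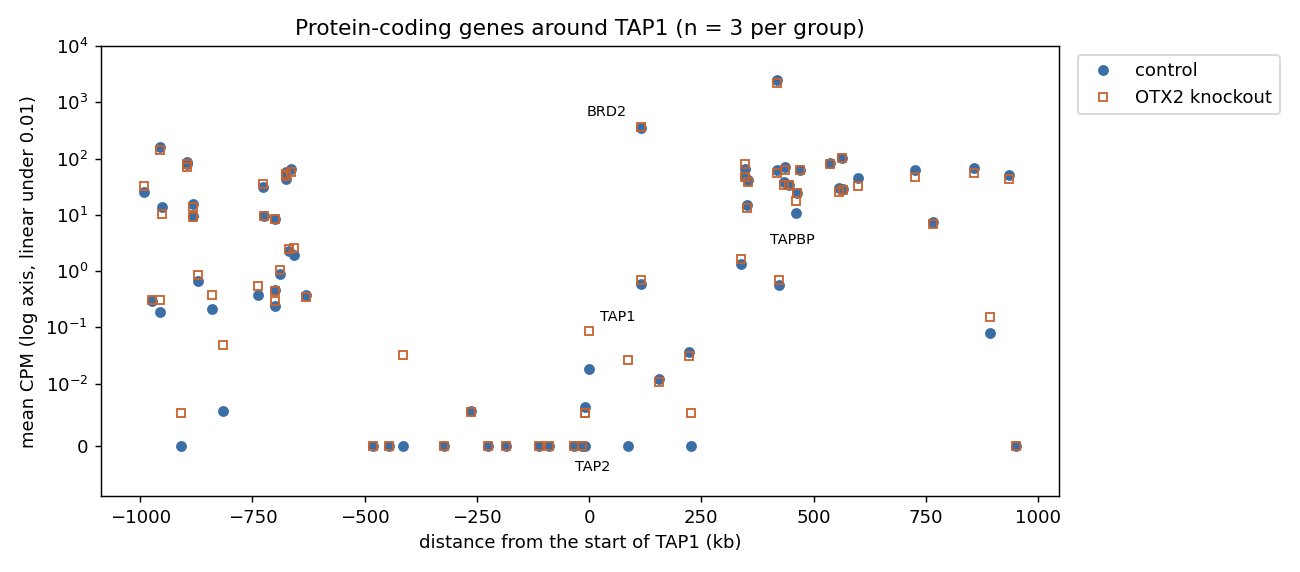
Mean CPM of protein-coding genes within 1 Mb of TAP1 (vertical log axis, linear under 0.01) against distance from the start of TAP1 in kb, for control (circles) and OTX2 knockout (squares), n = 3 per group. TAP1 and TAP2 lie in a stretch where most genes are near 0, which also holds BRD2 at 349 CPM in control. Genes on both sides of the stretch range from near 0 to well counted.

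Class I-like heavy chains outside the 9 were also measured. MR1, which presents vitamin B metabolites to MAIT cells, held 3.29, 3.30 and 2.87 CPM in control and 5.31, 4.66 and 6.37 CPM in knockout libraries, without overlap, and rose 1.73-fold (edgeR adjusted p = 9.59e-05). FCGRT, the heavy chain of the neonatal Fc receptor and also a partner of B2M, had a log2 fold change of -0.04 (adjusted p = 0.641 by edgeR). HLA-F and HLA-G had 0 counts in all libraries.

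Genes of peptide loading and trimming in the endoplasmic reticulum rose in part. Of 10 tested, 6 rose and 0 fell, beside 21.2% and 18.5% of all tested genes. The median change was 0.22 on the log2 scale. ERAP2, an aminopeptidase that trims peptides to class I length, rose 1.65-fold from 15.5 ± 0.363 CPM in control (SD, n = 3). PDIA3, the thiol oxidoreductase bound to tapasin, rose 1.41-fold, and the chaperone CALR, calreticulin, rose 1.22-fold. SEC61A1, a channel subunit whose exons overlap the abundant RUVBL1, rose 1.31-fold. The trimming enzyme ERAP1 and the tapasin relative TAPBPL differed by 0.10 and 0.06 on the log2 scale (edgeR adjusted p = 0.124 and 0.762). PDIA3, CALR, HSPA5 and SEC61A1 serve protein folding and import in general, not class I alone.

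Proteasome genes moved little. Of 12 tested constitutive core subunits, 0 rose and 1 fell, PSMB6, from 54.1 ± 3.94 to 47.7 ± 2.55 CPM (SD, n = 3 per group, adjusted p = 0.0228 by edgeR). That call was lost with library totals alone and when control replicate 2 or 3 or knockout replicate 3 was left out. PSMB5 and PSMB7 differed by -0.09 and 0.02 on the log2 scale (edgeR adjusted p = 0.24 and 0.716), and PSMB5 was called lower without control replicate 1. PSMB10, the remaining inducible subunit, had 13 counts in control and 32 in knockout, a ratio of 2.19 with a 95% counting interval of 1.12 to 4.54. Other genes cover 34.8% of its exon bases and 38.9% of its 50-base stretches are found elsewhere, so its counts are uncertain. Between libraries the PSMB10 to PSMB7 ratio overlapped (two-sided exact permutation test, p = 0.3). Among 11 tested genes of cytosolic peptide supply 1 rose and 2 fell: the proteasome activator PSME1 rose 1.13-fold, and the peptidases LAP3 and THOP1 fell 1.22-fold and 1.16-fold. Beside both lists, 21.2% of all tested genes rose and 18.5% fell. The PSME1 call was lost with DESeq2 and when control replicate 1 or 2 or knockout replicate 2 was left out, and the THOP1 call with library totals alone and without control replicate 2 or 3.

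Transcription factors of class I genes did not move as a block. Of 16 tested, 4 rose and 3 fell, close to the shares of all tested genes (21.2% and 18.5%). The median change was -0.05 on the log2 scale. NLRC5, the class I transactivator, held 0.433, 0.288 and 0.281 CPM in control and 0.958, 0.906 and 0.963 CPM in knockout libraries. NLRC5 rose 2.82-fold, by 1.49 ± 0.22 on the log2 scale (SE; edgeR adjusted p = 8.59e-05). IRF1, which binds the ISRE, held 5.06, 5.18 and 5.29 CPM in control and 11.6, 9.46 and 9.90 CPM in knockout libraries, again with every knockout library higher. IRF1 rose 1.99-fold (adjusted p = 3.66e-07 by edgeR), and its exons overlap C5orf56.

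RELB, a subunit of the non-canonical NF-κB pathway, rose 2.17-fold from 0.648 ± 0.0471 CPM (SD, n = 3), and ATF1, a factor that binds cyclic AMP elements, fell 1.19-fold. The constant parts of the NLRC5 complex differed less: RFX5 had a log2 fold change of -0.12 (adjusted p = 0.0617), RFXAP -0.13 (0.225) and RFXANK -0.06 (0.389), all by edgeR. RFX5 was called lower with RLE size factors, with DESeq2 and without control replicate 1. NFYB, a subunit of the factor that binds CCAAT, fell 1.14-fold, USF2 fell 1.09-fold and its partner USF1 rose 1.13-fold. The USF2 call held in 4 of 15 alternatives and was lost when any 1 library other than knockout replicate 2 was left out, and the USF1 call was lost without knockout replicate 2. The NFYB call was lost with library totals alone and without control replicate 2 or knockout replicate 1. The count of 3 falling factors became 1 with library totals alone, without control replicate 2 and without knockout replicate 1.

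**Figure D4:**
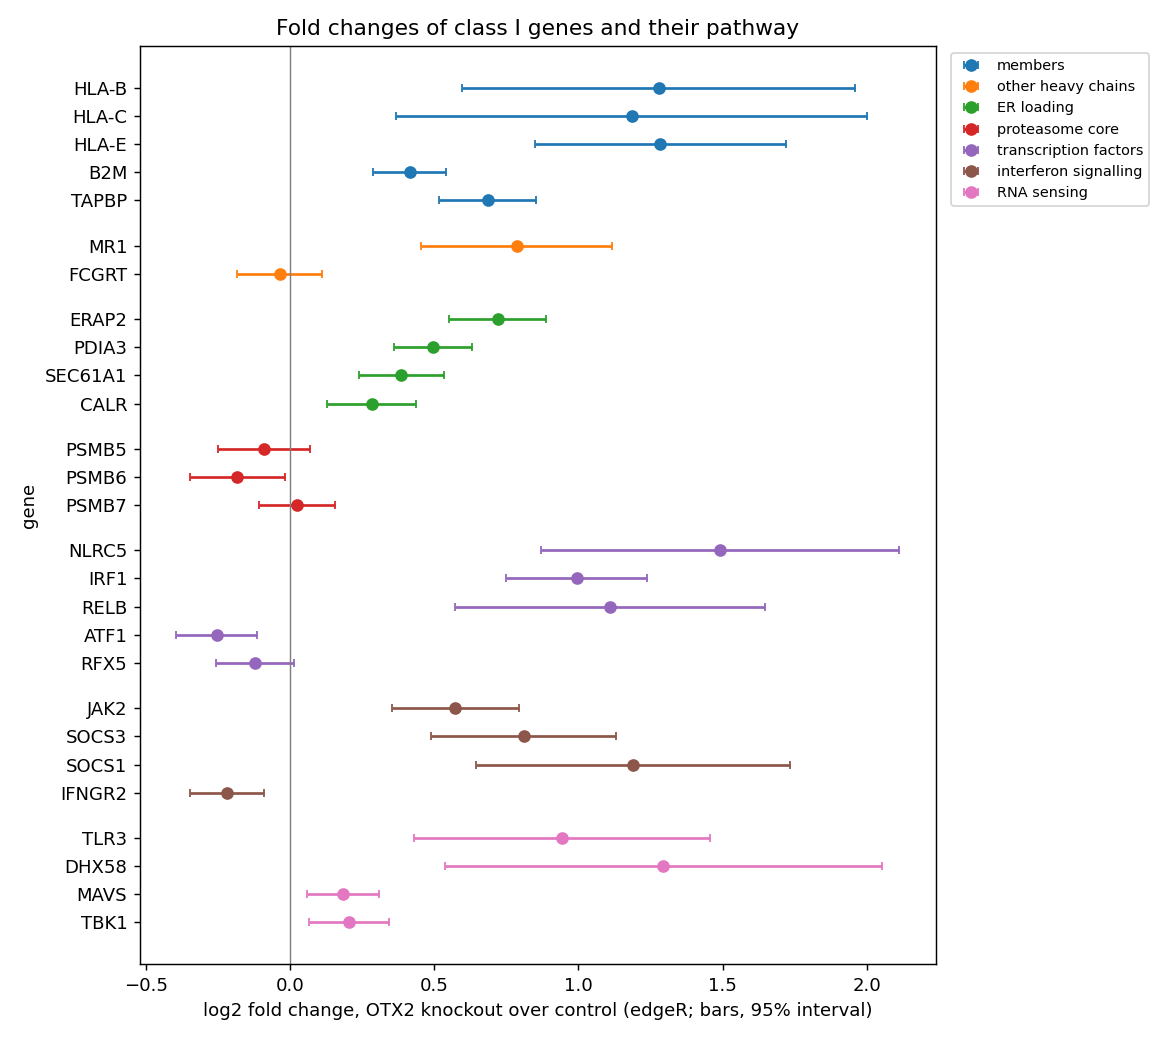
Log2 fold change of OTX2 knockout over control (horizontal axis) with 95% intervals on 4 residual degrees of freedom, for tested members and named genes of the pathway, coloured by group, from 3 libraries per group. The 5 members lie between 0.42 and 1.28, NLRC5 at 1.49 and IRF1 at 0.99, while the proteasome core subunits PSMB5, PSMB6 and PSMB7 lie between -0.18 and 0.02.

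The genes of interferons themselves were not detected. IFNB1, IFNG, IFNA1, IFNL1, IFNK and IFNE had 0 counts in all 6 libraries, which allows at most 3 counts of 54540645 in the shallowest. In the receptor pathway, 6 of 14 tested genes rose and 1 fell, beside 21.2% and 18.5% of all tested genes (median log2 fold change 0.12). JAK2, the kinase of the interferon-γ receptor, rose 1.49-fold from 4.83 ± 0.206 CPM in control (SD, n = 3). The feedback inhibitors SOCS1 and SOCS3 rose 2.29-fold and 1.75-fold, and the receptor subunit IFNGR2, whose exons overlap TMEM50B, fell 1.16-fold.

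Sensors of foreign or misplaced nucleic acid rose in part. In the list of interferons and sensors 9 genes were tested, 7 rose, 0 fell, and the median change was 0.26 on the log2 scale. The shares of all tested genes were 21.2% and 18.5%. TLR3, the endosomal receptor for double-stranded RNA, rose 1.92-fold from 0.743 ± 0.139 CPM (SD, n = 3), and DHX58, a regulator of RIG-I-like receptors, rose 2.45-fold from 0.271 ± 0.107 CPM. The adaptor MAVS and the kinase TBK1 rose 1.14-fold and 1.15-fold. The other risers were IFIH1 (1.60-fold), IRF3 (1.25-fold) and TMEM173, which encodes STING and went from 3.86 to 4.63 CPM. The TMEM173 call held in 7 of 15 alternatives and was lost with DESeq2 and without control replicate 2 or any 1 knockout replicate, and the IFIH1 call was lost with DESeq2.

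Genes whose profile over the 6 libraries was most like the mean log2 CPM of the 5 tested members were sought among 12942 other genes with a mean count of at least 100. The 5 nearest included PREX1 (Pearson's r 0.9989), SEMA4C (0.9986), CSPG4 (0.9983) and Z83851.1 (0.9983). These libraries form 2 separate groups, so the likeness is mostly the shared difference between the groups, and it is given as a description. PREX1, an exchange factor for RAC, had 72.7 ± 5.75 CPM in control libraries and 108.4 ± 1.32 CPM in knockout libraries (SD, n = 3), and CSPG4, a chondroitin sulfate proteoglycan, at 23.6 ± 1.43 and 31.7 ± 0.366 CPM. SEMA4C, a semaphorin, had a log2 fold change of 0.23 (SE 0.05), so a close likeness of profile did not mean a like size of change.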

How the data were processed

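Per the labels, the 6 libraries are total RNA from D283 cells, 3 control and 3 OTX2 knockout, grouped by the genotype label. The authors deposited raw counts per gene symbol, and per the submitters' processing notes the tools included STAR, with build hg38. For the STAR version, counting program, annotation and strand setting the sources used here give nothing. The deposited counts held 0 entries that name no gene and 0 columns of other series. Genes were filtered with filterByExpr, scaled by TMM and tested with edgeR 4.0.16 (quasi-likelihood test, R 4.3.3), with Benjamini-Hochberg adjustment over 18420 genes and a threshold of 0.05. Levels are CPM on scaled library sizes, fold changes are ratios of mean CPM, and log2 fold changes with SE come from the fit. Genes under the filter are given as counts with exact intervals at 95%, which cover counting error only. The log2 ratios used a pseudocount of 0.5 counts, and 4 planned ratios with a gene at or under 3 counts were not computed.

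Lists held 172 entries in 14 lists, 161 found by symbol, 10 by an older symbol and 1 not found. The members and lists were chosen with earlier results of these data known. Named genes are the members, their partners and regulators, up to 4 genes per list with the smallest adjusted p, and the 5 nearest profiles, some of which are left out of the text; other genes named were chosen after their values were seen. Positions, lengths and overlaps come from GENCODE release 29 on GRCh38. Alternatives were other scalings and filters, DESeq2 1.42.0, limma-voom (limma 3.58.1), glmTreat, a threshold of 0.01 and leaving out each library. On data simulated for this comparison, edgeR tested 17746 genes and recovered 82% of 1.5-fold, 96% of 2-fold and 100% of 3-fold changes, with 6 false calls. The simulation changed far fewer genes than were called here, balanced up and down, with dispersions from the fitted trend. These shares hold for that setting only.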

Additional observations from a re-analysis of the deposited data

How the results depend on the processing

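The 5 tested members kept their direction under every alternative run, and 70 of 73 member results kept their side of the threshold. The 3 that did not were tests against a 1.5-fold change (glmTreat), where HLA-C (adjusted p = 0.115), TAPBP (0.196) and B2M (1.0) were not called, leaving 2 members, HLA-B and HLA-E. At least 1 CPM in at least 3 libraries left 3 members called, because HLA-B and HLA-C fall under that filter. Leaving out any 1 library, control replicate 1 included, gave 5 members called each time. Log2 fold changes of HLA-C ranged from 0.84 to 1.52 over the alternatives and those of B2M from 0.39 to 0.49. Over all genes, 3908 rose and 3404 fell, and with library totals alone 5210 rose and 2034 fell. With glmTreat 1207 genes changed, 1050 up and 157 down. The log2 ratios to B2M kept their sign with a pseudocount of 2 and without any 1 library, and that of HLA-C ranged from 0.45 to 1.21 over left-out libraries. No paired analysis was possible because the labels carry no shared replicate numbers. Depth limits TAP1, TAP2, PSMB8 and PSMB9, where 3 counts correspond to 0.0471 to 0.0563 CPM per library.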

Other observations

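Genes that remove or repress class I were mixed. Of 12 tested, 3 rose and 4 fell, beside 21.2% and 18.5% of all tested genes (edgeR's quasi-likelihood test, adjusted p under 0.05). SUSD6, listed in the table as KIAA0247 and a membrane protein that directs class I molecules to degradation, rose 1.58-fold, from 23.1 ± 0.568 to 36.5 ± 1.65 CPM (SD, n = 3 per group), and its partner TMEM127 rose 1.12-fold, a call that held in 4 of 15 alternatives and was lost with DESeq2 and when any 1 library other than knockout replicate 1 was left out. The third partner, the ubiquitin ligase WWP2, had a log2 fold change of 0.13 (adjusted p = 0.198 by edgeR). MARCHF1, a ubiquitin ligase listed as MARCH1, rose from 16 to 82 counts. EED and EZH2, subunits of the repressive PRC2 complex, fell 1.31-fold and 1.14-fold, and the EZH2 call was lost with library totals alone, where 1 gene of the list fell.

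Few ligands of natural killer cell receptors passed the test, and the 1 class II gene tested did not. Of 9 tested ligands, 1 rose, ULBP3 (1.39-fold), and 1 fell, PVRL2 (1.13-fold), beside 21.2% and 18.5% of all tested genes. The ULBP3 call was lost with DESeq2 and without control replicate 3 or knockout replicate 1, and the PVRL2 call with library totals alone and when control replicate 2 or 3 or knockout replicate 3 was left out. MICA, a class I relative in the MHC, had a log2 fold change of 0.03 (adjusted p = 0.846 by edgeR). Of 13 class II genes, HLA-DMA was the 1 tested, with an adjusted p of 0.45 by edgeR. Other genes cover 9.04% of its exon bases, and the abundant BRD2 is among them, so its counts are uncertain. The 12 others had too few counts to test. All 13 together summed to 0.694 to 0.903 CPM in control and 0.986 to 1.51 CPM in knockout libraries, a difference that was not tested. CIITA, the class II transactivator, had 11 counts in control and 32 in knockout, a ratio of 2.58 with a 95% counting interval of 1.27 to 5.68, and an adjusted p of 0.0654 by edgeR without the filter.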
